A study of Mus musculus with 6 samples.

Results

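The 10 genes described here encode the ligand WNT5A, its receptors and components of planar cell polarity, and they were taken by symbol from a table of 23718 genes: Wnt5a, Ror1, Ror2, Ryk, Ptk7, Vangl1, Vangl2, Prickle1, Prickle2 and Daam1. All 10 were listed, each once. RNA was sequenced from cells captured by laser from sections of the incisor of mice aged 1 month, labelled C57BL/6 although the methods speak of a mixed background, in 3 samples called MSC (mesenchymal stem cell, genotype Gli1-CreER;tdT) and 3 called TAC (transit amplifying cell, genotype Axin2-CreER;tdT). In both genotypes tamoxifen, given 1 day before collection, lets Cre turn on the red reporter tdT wherever its driver gene is active, so a captured area is defined by a Hedgehog target (Gli1) or a canonical WNT target (Axin2) and can hold other cells of the section. The methods give 3 mice per group, but the labels tie no sample to a mouse, so p-values measure only the spread between these samples.

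WNT5A is the best known ligand of the WNT branch that works without beta-catenin. It binds FZD receptors together with ROR1, ROR2 or RYK, and it signals through Dishevelled to small GTPases and the cytoskeleton. Planar cell polarity, the orientation of cells within a tissue plane, uses the membrane proteins VANGL1 and VANGL2, their cytoplasmic partners PRICKLE1 and PRICKLE2, and the formin DAAM1. In the developing tooth, Wnt5a and Ror2 are expressed in the dental mesenchyme.

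None of the 10 genes passed the test for a difference between TAC and MSC samples. The count at an adjusted p below 0.05 (limma, Benjamini-Hochberg over the 15391 genes tested) was 0 of 10, against 0.422% of all genes tested, and at an unadjusted p below 0.05 it was also 0 of 10, against 11.9% of all genes (5.42% with TAC higher and 6.43% with MSC higher). With limma voom on the estimated reads the counts were 0 and 2 (Vangl1 and Daam1), against 0.149% and 23.2% of all genes. The 95% confidence intervals of the log2 fold change (TAC minus MSC) were wide, from the narrowest, -0.89 to 0.85 for Prickle1, to the widest, -3.21 to 2.66 for Ror1. Vangl1 was the one member whose MSC and TAC values did not overlap, with MSC higher. Over all genes tested, 24.5% had groups that did not overlap, and 12.2% had this with MSC higher. The median log2 fold change of the members was 0.04, against 0.03 for all genes tested, and the median size without sign was 0.53 against 0.51. The difference between TAC and MSC in replicate 3 departed from that in replicates 1 and 2 for 9 of 10 members, against 57.2% of all genes, at an adjusted p below 0.05 of the interaction in limma. Its error is the spread between replicates 1 and 2 alone.

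Replicate 3 stood apart in both groups over the whole table. Estimated reads ran from 20203159 to 25567244 in replicates 1 and 2, and were 59793645 and 108156380 in the third MSC and TAC samples. Mitochondrial ribosomal RNA took 8.28% to 9.07% of reads in replicates 1 and 2, but 0.236% in the third MSC sample and 0.112% in the third TAC sample. No read was found for 43.1% of the listed genes in MSC replicate 3 and for 28.3% in TAC replicate 3. In replicates 1 and 2 this share was 6.89% to 8.36%. Among genes tested, 3299 of 15391 had no read in MSC replicate 3, as had 2 of the 10 members (Ror1 and Daam1). MSC replicates 1 and 2 differed by more than sampling noise (chi-square per degree of freedom 10.5, where sampling noise alone gives about 1), as did TAC replicates 1 and 2 (8.49), so neither pair was treated as a single library deposited again. Separate libraries of the same RNA could differ as much, and averaging replicates 1 and 2 left 0 of 10 members past either threshold, against 0.065% (adjusted) and 3.96% (unadjusted) of all genes. Of 10 dental mesenchyme markers, 3 were higher in MSC and 1 in TAC at an unadjusted p below 0.05, and their summed signal was 2970 in MSC replicate 3 against 8824 to 11999 elsewhere. Col1a1 carried this gap, with 1554 in MSC replicate 3 and 8030 to 11167 elsewhere. Vim (621), Dlx1 (461) and Pax9 (173) were highest in MSC replicate 3, while Msx1, Msx2, Dlx2 and Lhx6 were lowest there. The 10 markers were read in every library except Barx1, which had no read in MSC replicate 3. The proliferation gene Mki67 had a mean of 448 ± 283 in TAC and 103 ± 53.2 in MSC (SD, n = 3). Mki67 overlapped between the groups (limma adjusted p = 0.361, and 0.0442 with the replicate number as a block, with TAC above MSC within each number), as did the driver genes Gli1 and Axin2. Of 6 smooth muscle and pericyte markers all were higher in MSC at an unadjusted p below 0.05, with a summed signal of 615 to 1424 against 59.3 to 66.7 in TAC. The 8 epithelial markers used had positive differences (2 at an unadjusted p below 0.05), but for Amelx and Enam the log2 difference was negative in replicates 1 and 2 (-0.21 and -0.07). The summed signal of the 8 markers was 300 in MSC replicate 3 against 2152 to 3657 in the other libraries. Most of it came from the enamel genes Amelx, Ambn and Enam. Their values were 80.6, 181 and 7.07 in MSC replicate 3 and 2503, 820 and 308 in MSC replicate 1. Over MSC replicates 1 to 3, Krt14 had 12.9, 8.84 and 16.0 and Krt5 had 7.75, 10.2 and 15.0, both highest in replicate 3. Krt17, Epcam and Cdh1 had no read in MSC replicate 3. Endothelial markers summed to 147 to 217 in MSC and 69.4 to 87.3 in TAC (3 of 5 higher in MSC at an unadjusted p below 0.05), and odontoblast markers to 532 to 5150 and 3311 to 4647 (none of 5 at that threshold). Schwann cell and nerve markers summed to 20.2 to 43.2 in MSC and 6.09 to 19.2 in TAC (1 of 4 tested higher in MSC at that threshold), and macrophage markers to 45.5 to 104 and 30.0 to 87.8 (none of 5). The part of other cell types in the members' values was not tested, and in these captured samples fewer cells of a type and less RNA per cell cannot be told apart.

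Ror1 with Ror2, Vangl1 with Vangl2 and Prickle1 with Prickle2 are paralogs, and reads of 75 bases had to be assigned within each pair. The most alike 75-base stretches that lay in 1 exon of both genes are printed 5′ to 3′, with the bases that differ in capitals, because they show how much sequence separates the measurements. They come from the longest coding transcript of each gene in GENCODE M21 (build GRCm38, the same assembly as mm10). For the receptors, the stretch lies in exon 9 of Ror1 at chr4:100441391-100441465 on the plus strand and in exon 9 of Ror2 at chr13:53111021-53111095 on the minus strand, within the part that encodes the tyrosine kinase domain.
Ror1: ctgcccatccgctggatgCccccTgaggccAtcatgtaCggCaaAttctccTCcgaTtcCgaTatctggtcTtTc
Ror2: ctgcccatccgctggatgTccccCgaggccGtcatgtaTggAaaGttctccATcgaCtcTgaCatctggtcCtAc
For the VANGL proteins, it lies in exon 7 of Vangl1 at chr3:102163325-102163399 and in exon 8 of Vangl2 at chr1:172006116-172006190, both on the minus strand.
Vangl1: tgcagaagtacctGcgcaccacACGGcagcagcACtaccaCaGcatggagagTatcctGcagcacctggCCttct
Vangl2: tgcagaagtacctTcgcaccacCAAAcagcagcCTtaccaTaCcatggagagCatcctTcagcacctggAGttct
For the PRICKLE proteins, it lies in exon 6 of Prickle1 at chr15:93505135-93505209 and in exon 7 of Prickle2 at chr6:92416842-92416916, both on the minus strand, where a LIM domain is encoded.
Prickle1: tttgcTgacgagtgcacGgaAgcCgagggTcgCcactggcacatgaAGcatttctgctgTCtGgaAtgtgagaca
Prickle2: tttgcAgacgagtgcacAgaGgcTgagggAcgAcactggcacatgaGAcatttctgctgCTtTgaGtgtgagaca
These stretches differed at 13 bases for Ror1 and Ror2, 13 for Vangl1 and Vangl2 and 12 for Prickle1 and Prickle2. Across exon junctions as well, the fewest differences between 75-base stretches of the coding sequences were 12, 12 and 9. The longest run of identical bases was 23, 21 and 19, shorter than a read, so no full-length read from the coding sequence of these transcripts matches both members of a pair exactly. Other transcripts and untranslated sequence were not compared.

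Wnt5a, the ligand, lies at chr14:28504750-28527447 on the plus strand of mm10. Its normalized signal (estimated reads on a common scale per library, not divided by gene length) was 57.2, 50.9 and 16.2 in MSC, given here and below in the order of replicates 1 to 3, and 53.4, 53.0 and 38.3 in TAC. MSC replicate 3 was the low sample, and the groups overlapped. Wnt5a had a log2 fold change of 0.38 (SE 0.49, limma adjusted p = 0.826). On the same log2 scale the difference was -0.02 in replicates 1 and 2 and 1.19 in replicate 3, so the whole of the positive difference came from replicate 3. An antisense gene, Gm2670, overlaps Wnt5a, and whether reads were counted by strand is not given in the sources used here.

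Ror2, the receptor tyrosine kinase through which WNT5A acts in limb, heart and skeleton, lies at chr13:53109312-53286124. Its signal was 44.8, 42.3 and 16.2 in MSC and 45.0, 45.1 and 13.2 in TAC. Both groups had the same pattern, with replicate 3 low, and they overlapped. Ror2 had a log2 fold change of -0.06 (SE 0.59, limma adjusted p = 0.985), with a 95% confidence interval from -1.46 to 1.33. It was the one member whose TAC against MSC difference was not called different between replicate 3 and replicates 1 and 2 (log2 difference -0.33, limma adjusted p = 0.112). Within replicates 1 and 2 its difference was 0.05 with an SE of 0.09.

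Ror1, the second ROR receptor, lies at chr4:100095791-100444765. Its signal was 14.3 and 18.0 in the first MSC samples (replicates 1 and 2) and 11.5, 5.99 and 0.887 in TAC. In MSC replicate 3 Ror1 had no read, against 537 and 619 estimated reads in the shallower MSC replicates 1 and 2. Taking 3 reads as the limit for a library without a read, TAC replicate 3 was at least 44.2-fold higher than MSC replicate 3, and the mean of MSC replicates 1 and 2 was at least 807-fold higher. Of 3178 protein-coding genes within 1.5-fold of the mean of Ror1 in MSC replicates 1 and 2, 220 (6.92%) had no read in MSC replicate 3. The groups overlapped, and the fitted log2 fold change of -0.28 (SE 1.25, limma adjusted p = 0.968) depends on the 1 added before the logarithm. Annotated pseudogenes lie within Ror1, Prickle2 and Daam1, and how reads shared with them were counted is not given in the sources used here.

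Ryk, an atypical receptor tyrosine kinase that binds WNT ligands, lies at chr9:102834917-102908305. Its signal was 21.2, 18.0 and 48.3 in MSC and 27.3, 24.9 and 34.2 in TAC. Replicate 3 was the highest sample in both groups, the opposite of Wnt5a and Ror2, and the groups overlapped. Ryk had a log2 fold change of 0.10 (SE 0.42, limma adjusted p = 0.963), made of 0.40 in replicates 1 and 2 and -0.49 in replicate 3.

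Ptk7, a catalytically inactive receptor kinase needed for planar polarity, lies at chr17:46564451-46629504. Its signal was 88.2, 71.8 and 5.25 in MSC and 93.2, 104 and 45.3 in TAC. MSC replicate 3 lay far below the other 5 libraries, and the groups overlapped. Ptk7 had a log2 fold change of 1.16 (SE 0.98, limma adjusted p = 0.705). The difference was positive in both sets of libraries, 0.30 in replicates 1 and 2 and 2.89 in replicate 3. Without MSC replicate 3 it was -0.065. The lincRNA Gm26904 overlaps Ptk7.

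**Figure D1:**
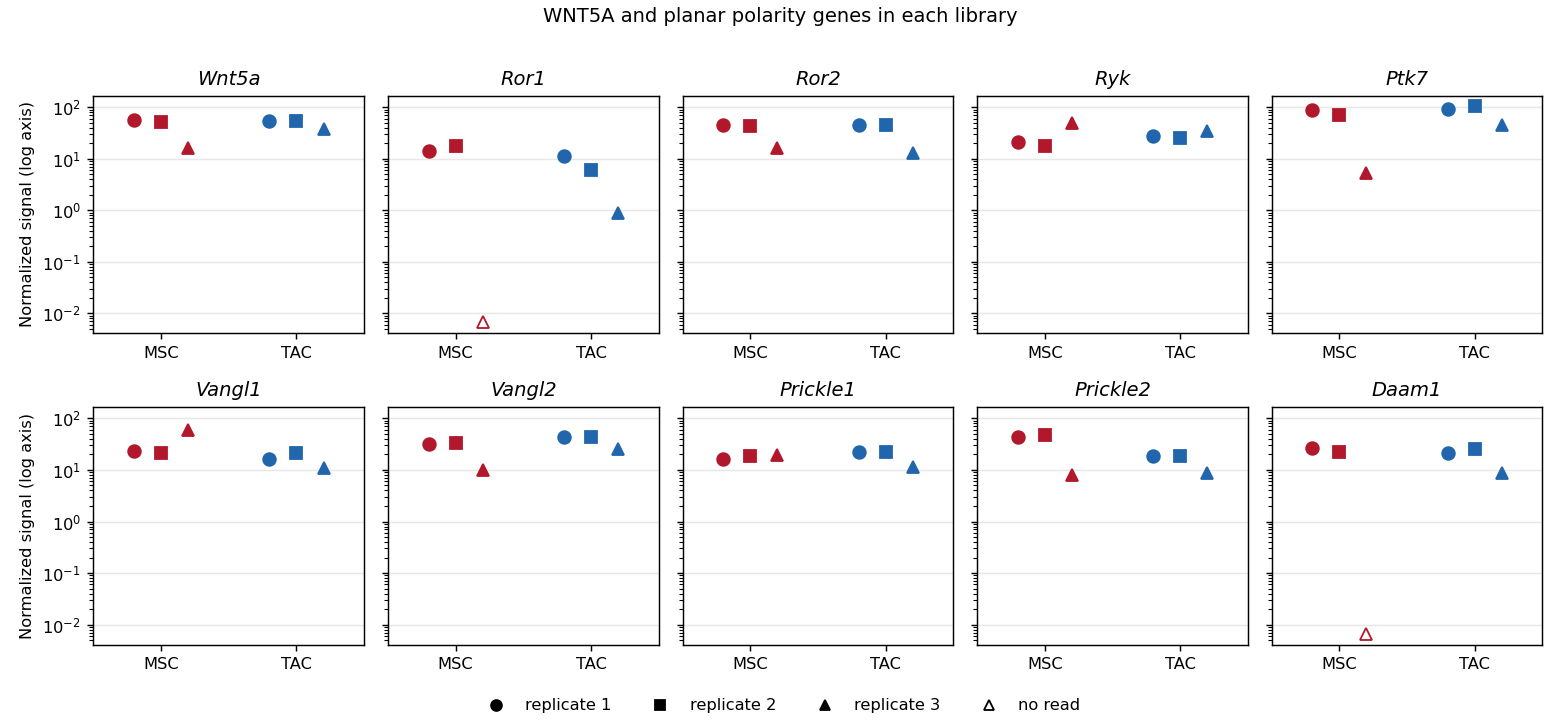
Normalized signal (log axis) of each of the 10 genes in the MSC samples (red) and TAC samples (blue), with circles, squares and triangles for replicates 1, 2 and 3 and open triangles for a library without a read. Replicates 1 and 2 of a group lie together for every gene except Ror1 in TAC, while MSC replicate 3 lies below them for Wnt5a, Ror2, Ptk7, Vangl2 and Prickle2, above them for Ryk, Vangl1 and, by little, Prickle1, and has no read for Ror1 and Daam1.

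Among the polarity components, Vangl1 and Vangl2, membrane proteins at the core of the pathway, had differences of opposite sign. Vangl1 (chr3:102153583-102204693) had a signal of 23.8, 21.4 and 60.0 in MSC and 16.4, 21.3 and 11.0 in TAC. Every MSC sample was above every TAC sample, but MSC replicate 2 (21.36) was barely above TAC replicate 2 (21.27). The MSC mean was 2.16-fold the TAC mean, with a log2 fold change of -0.95 (SE 0.47, unadjusted p = 0.0822, limma adjusted p = 0.492). Without MSC replicate 3 it was -0.50. The antisense gene Gm16160 overlaps Vangl1. Vangl2 (chr1:172000960-172028444), the better known of the pair for its neural tube phenotype, had a signal of 32.1, 33.1 and 10.2 in MSC and 43.8, 42.8 and 25.6 in TAC. Within each replicate number TAC was above MSC, although the groups overlapped because TAC replicate 3 was below MSC replicates 1 and 2. Vangl2 had a log2 fold change of 0.68 (SE 0.50, limma adjusted p = 0.661), and with the replicate number as a block its unadjusted p was 0.0497 and its adjusted p 0.245. Without MSC replicate 3 the log2 fold change was 0.15.

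The scaling of a library cancels in the ratio of Vangl1 to Vangl2, which was 0.741, 0.645 and 5.89 in MSC and 0.373, 0.497 and 0.430 in TAC. All MSC ratios were above all TAC ratios. The log2 ratio, with 1 added to each signal, differed by -1.64 between TAC and MSC (exact permutation test, two-sided p = 0.1, the smallest that 3 against 3 samples allow, and 0.3 adjusted over the 3 pairs). In replicates 1 and 2 the difference was -0.66 and in replicate 3 it was -3.60. MSC replicate 3 was also the one library where Vangl1 exceeded Vangl2 per length of exon, 5.76-fold, against ratios per length of 0.365 to 0.724 in the other 5.

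Prickle1 and Prickle2, the cytoplasmic partners, kept a steady ratio over the TAC samples but not over the MSC samples. Prickle1 (chr15:93499114-93595891) had a signal of 16.6, 18.3 and 19.7 in MSC and 22.2, 22.8 and 11.3 in TAC. It was the steadiest member over the MSC samples (SD 1.58 around a mean of 18.2, n = 3), and its groups overlapped, with a log2 fold change of -0.02 (SE 0.37, limma adjusted p = 0.993). Prickle2 (chr6:92370908-92706155) had a signal of 43.6, 47.1 and 8.08 in MSC and 19.0, 18.5 and 8.70 in TAC. The 2 higher MSC samples were above all TAC samples and the third was below them, so the groups overlapped, with a log2 fold change of -0.79 (SE 0.69, limma adjusted p = 0.713). The ratio of Prickle1 to Prickle2 was 0.380, 0.390 and 2.44 in MSC and 1.17, 1.23 and 1.30 in TAC. TAC ratios were close to each other and lay inside the range of MSC (log2 difference 0.77, exact permutation p = 0.4, adjusted 0.6). The difference was 1.58 in replicates 1 and 2 and of the opposite sign, -0.85, in replicate 3. For Ror1 against Ror2 the ratio was 0.320 and 0.424 in the first MSC samples and 0.255, 0.133 and 0.0674 in TAC, and with MSC replicate 3, where Ror1 had no read, the groups overlapped (exact permutation p = 0.9, adjusted 0.9).

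**Figure D2:**
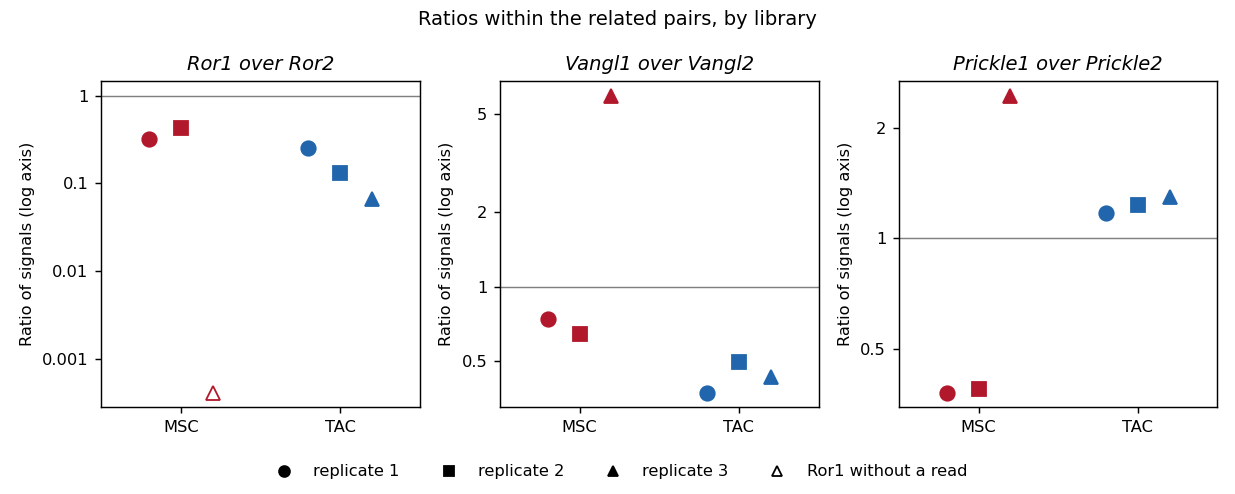
Ratio of the normalized signals of Ror1 to Ror2, Vangl1 to Vangl2 and Prickle1 to Prickle2 in each library (log axes, each panel with its own range), MSC in red and TAC in blue, with 1 marker shape per replicate. The Vangl1 to Vangl2 ratio is 0.645 to 5.89 in MSC and 0.373 to 0.497 in TAC, while the Prickle ratio of TAC, 1.17 to 1.30, lies between MSC replicates 1 and 2 and MSC replicate 3.

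Daam1, a formin that joins Dishevelled to RhoA and builds actin filaments, lies at chr12:71831078-71992333. Its signal was 26.3 and 22.1 in the first MSC samples (replicates 1 and 2) and 21.7, 25.8 and 8.66 in TAC. In MSC replicate 3 Daam1 had no read, against 987 and 763 estimated reads in MSC replicates 1 and 2. TAC replicate 3, with 2283 reads, was at least 433-fold higher than MSC replicate 3 when 3 reads are taken as the limit for the latter. Among 2957 protein-coding genes of like level in MSC replicates 1 and 2 (within 1.5-fold), 106 (3.58%) had no read in MSC replicate 3. In replicates 1 and 2 TAC and MSC overlapped, and the fitted log2 fold change over all samples was 1.07 (SE 1.24, limma adjusted p = 0.803), which again depends on the added 1: it was 0.47 with 5 added, and 8.15 with limma voom on the estimated reads.

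With the 4 libraries of replicates 1 and 2 alone, 6 of 10 members were called at an adjusted p below 0.05 in limma, against 47.4% of all genes tested there. Prickle2 was 2.42-fold higher in MSC (log2 fold change -1.23, SE 0.11, limma adjusted p = 1.5e-09), and Ror1 was 1.85-fold higher in MSC (log2 fold change -0.87, SE 0.21, limma adjusted p = 0.00156). Ryk was 1.33-fold, Vangl2 1.33-fold, Prickle1 1.29-fold and Ptk7 1.23-fold higher in TAC, with limma adjusted p from 0.0018 to 0.0342. Over all alternatives the adjusted p of each of these 6 genes ran from its value here up to 1.00, so the calls rest on replicates 1 and 2. Wnt5a, Ror2, Vangl1 and Daam1 were not called there, with TAC to MSC ratios of 0.985, 1.03, 0.834 and 0.98. Replicate 3 alone gave the opposite sign from replicates 1 and 2 for 7 members, and the same sign for Ptk7, Vangl1 and Vangl2. This is 3 of 10, against 61.2% of all genes tested.

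**Figure D3:**
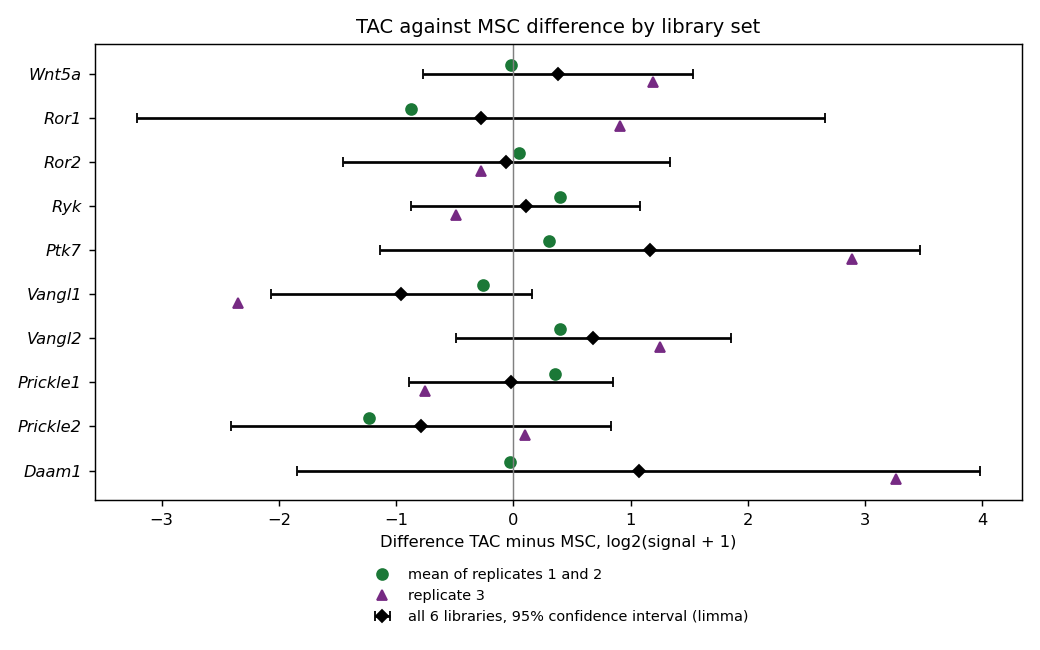
Difference TAC minus MSC on the log2(signal + 1) scale for each of the 10 genes, as the mean over replicates 1 and 2 (green circles), in replicate 3 (purple triangles) and over all 6 libraries with the 95% confidence interval of limma (black diamonds and bars). Every interval spans 0, and the green and purple points lie on the same side of 0 for Ptk7, Vangl1 and Vangl2.

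Set against replicates 1 and 2 of its own group, replicate 3 was lower for 7 of the 10 members in MSC and for 9 of 10 in TAC. The exceptions were Ryk, Vangl1 and Prickle1 in MSC and Ryk in TAC. Over 13014 protein-coding genes tested, 58.3% were lower in replicate 3 in MSC and 53.1% in TAC. Daam1 (log2 difference -4.64), Ror1 (-4.08) and Ptk7 (-3.69) were in the lowest 3.04% of protein-coding genes for this difference in MSC, where Daam1 and Ror1 had no read. In TAC the lowest member was Ror1 (-2.31, percentile 3.63), followed by Ror2 (-1.70, percentile 8.81). Ryk, with 1.26, stood at percentile 85.9 in MSC, and Vangl1, with 1.38, at percentile 87.8.

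Levels can be compared between genes only per length, so signals were divided by the summed exon length in kb. On that scale Ptk7 had the highest group mean in both groups, 10.2 ± 8.16 in MSC and 15.0 ± 5.78 in TAC (SD, n = 3). Ror2 followed with 8.12 ± 3.74 and 8.11 ± 4.34. Ryk had 6.43 ± 3.67 and 6.35 ± 1.07, and the ligand Wnt5a 5.30 ± 2.82 and 6.17 ± 1.10. Ror1 was the lowest by mean in both groups, with 1.87 ± 1.65 in MSC and 1.06 ± 0.92 in TAC. Ptk7 was first in 5 of 6 libraries, and in MSC replicate 3 Ryk was first and Ptk7 seventh. Of the 18 pairs of neighbours in the order of the group means, 9 in each group, all 18 overlapped in range, so no step between neighbours exceeded the spread over samples. Within single libraries 7 of the 18 pairs kept their order in all 3 samples, among them Ptk7 above Ror2, Wnt5a above Vangl2 and Vangl2 above Prickle1 in TAC. Among all protein-coding genes, Ptk7 stood at percentile 93.5 to 95.5 in replicates 1 and 2 of both groups, at 43.5 in MSC replicate 3 and at 85.0 in TAC replicate 3.

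**Figure D4:**
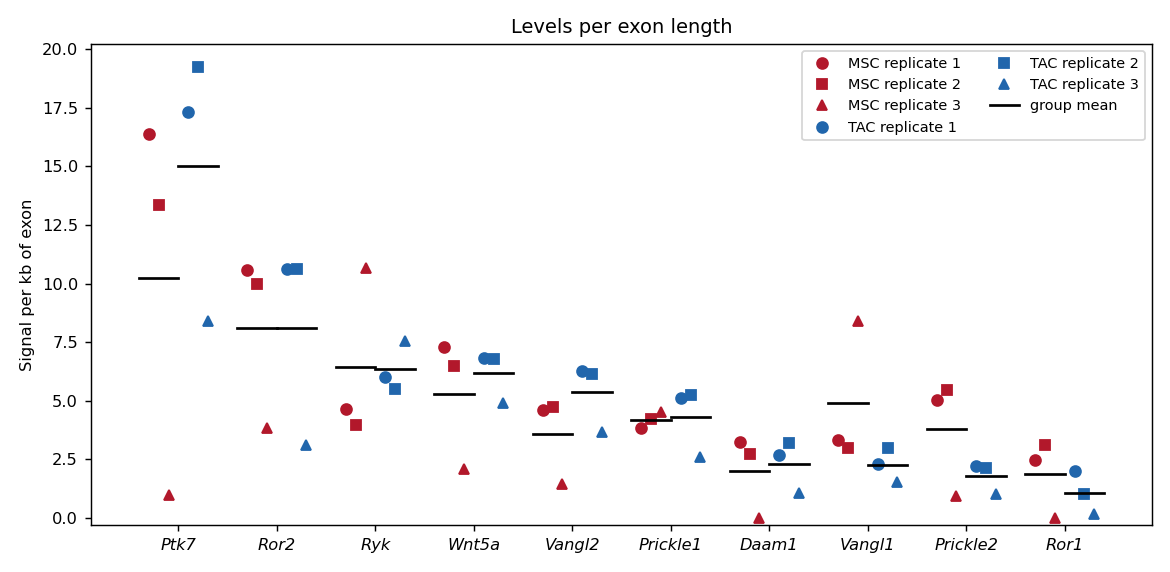
Normalized signal per kb of exon of the 10 genes, ordered by their TAC mean, in MSC (red) and TAC (blue) samples with a marker shape per replicate and a bar at each group mean. Ptk7 has the highest mean in both groups and Ror1 the lowest, and the ranges of neighbouring genes overlap.

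Other genes of noncanonical WNT signaling were read from the same test, 63 genes in 4 lists, of which 62 were listed in the table and 60 were tested. None passed the adjusted threshold in limma (none with voom either), and 7 of 60 passed an unadjusted p below 0.05, which is 11.7% against 11.9% of all genes. With the replicate block 1 gene (Mapk10) had an adjusted p below 0.05 and 17 genes an unadjusted p below 0.05, against 1.49% and 20.4% of all genes. The groups did not overlap for 15 of 60 genes, 5 with TAC higher and 10 with MSC higher, against 24.5% of all genes. The median log2 fold change was 0.04, as for the members.

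Among the other core polarity genes (13 tested) Fzd6, a Frizzled receptor of the polarity pathway, was higher in MSC, with a log2 fold change of -1.38 (SE 0.49, limma adjusted p = 0.33, unadjusted p = 0.0248). Fjx1, which encodes a kinase of the Fat and Dachsous system, did not overlap between groups, with TAC higher (log2 fold change 0.71, limma adjusted p = 0.583). Fzd3 (1.10) and Prickle3 (-0.76) had the other large differences, and both overlapped between groups. Without MSC replicate 3 they were 0.23 and -0.30, and without TAC replicate 3 Fzd3 was 1.93. Like Vangl1, Fzd6 had MSC higher in replicates 1 and 2 (-0.71) and in replicate 3 (-2.71).

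Among the 19 effectors Mapk10, a JNK kinase, had the largest difference. Its signal was 12.4, 12.3 and 7.03 in MSC and 0.635, 0.743 and 0.118 in TAC, a 21.2-fold difference of the means without overlap (log2 fold change -2.94, SE 0.52, limma adjusted p = 0.0865 and 0.0477 with the replicate block). Smurf1, a ubiquitin ligase that targets Prickle proteins, was also higher in MSC (log2 fold change -0.88, limma adjusted p = 0.368, unadjusted p = 0.034). The GTPase Rac1 had 54.7, 46.2 and 44.2 in MSC against 76.9, 80.7 and 81.8 in TAC, a 1.65-fold higher TAC mean (log2 fold change 0.72, SE 0.24, limma adjusted p = 0.303, unadjusted p = 0.0198). All TAC samples were above all MSC samples for Rac1, replicate 3 included. Kif26b, a kinesin downstream of ROR2, overlapped widely (log2 fold change 0.94, SE 1.73), as did the ciliary polarity gene Wdpcp (0.84), which had no read in MSC replicate 3. Without that library they were -1.11 and -0.23.

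Among the 9 other ligands, receptors and cofactors tested, Wls, the carrier that every WNT needs to be secreted, had 34.8, 45.1 and 24.6 in MSC and 60.8, 61.8 and 80.4 in TAC. The groups did not overlap and the TAC mean was 1.94-fold higher (log2 fold change 0.97, SE 0.31, limma adjusted p = 0.282, unadjusted p = 0.0163). Fzd5 (0.77), with no read in MSC replicate 3, and the ligand gene Wnt5b (-0.57) overlapped between groups, and without MSC replicate 3 they were -0.18 and -0.23. Gpc4, a glypican, was higher in every MSC sample (-0.83) without passing the unadjusted threshold, and was -0.43 without TAC replicate 3.

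Of the 19 tested genes of the calcium branch 13 had negative differences, with a median log2 fold change of -0.30, and the 5 genes without overlap all had MSC higher. Of all genes tested, 48.5% had negative differences, 24.5% had groups without overlap in either direction and 12.2% had this with MSC higher. Nfatc4, a calcineurin-regulated transcription factor, had 142, 133 and 136 in MSC and 89.2, 93.0 and 85.0 in TAC (log2 fold change -0.62, SE 0.24, limma adjusted p = 0.371, unadjusted p = 0.0345). Its groups were far apart relative to their spread, and replicate 3 did not stand out. Camk2d, a calcium-dependent kinase, was 1.90-fold higher in MSC by mean (log2 fold change -0.87, limma adjusted p = 0.338, unadjusted p = 0.0262). Nfatc1 (-1.78) did not overlap between groups, and Plcb2 (-1.23), Camk2a (0.64) and Map3k7 (0.66) did. The difference of Nfatc1 was -0.38 in replicates 1 and 2 against -4.58 in replicate 3, and it was -0.87 without TAC replicate 3. That of Map3k7 was 0.21 without MSC replicate 3, and that of Camk2a was 0.08 in replicates 1 and 2 against 1.77 in replicate 3. The smooth muscle and pericyte markers, higher in MSC in the same libraries, were not used to adjust these values.

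**Figure D5:**
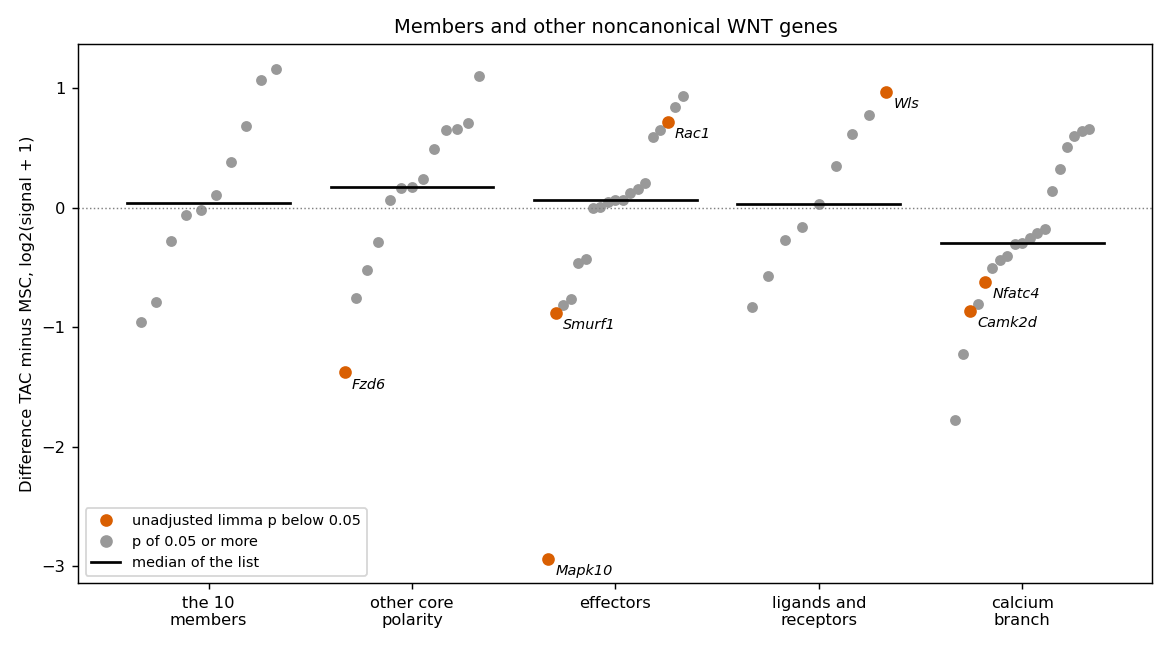
Difference TAC minus MSC on the log2(signal + 1) scale for the 10 members and for the 60 tested genes of the 4 other lists, each point a gene, with orange and a name for an unadjusted limma p below 0.05 and a bar at the median of each list. No member is orange, 7 of the other 60 genes are, and the median of the calcium branch, -0.30, is the lowest of the lists.

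The genes whose log2 signal followed Wnt5a most closely over the 6 libraries were Rasa2, Smcr8, Luzp1, Zmym4 and Chd1l (Pearson's r 0.998 to 1.000), out of 12829 genes compared. For Ror2 they were Pcgf3, Sh3pxd2a, mt-Rnr1, Nvl and Spen (r 0.999 to 1.000). The libraries fall into the 2 sets described, and 1773 genes had r above 0.9 with Wnt5a and 1392 with Ror2. One of the closest to Ror2 is mitochondrial 12S ribosomal RNA, the transcript on which replicate 3 stood apart.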

How the data were processed

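RNA from laser-captured incisor cells was sequenced in 3 MSC and 3 TAC samples, grouped by the genotype labels. Per the labels and methods, the authors aligned 75-cycle single-end reads to mm10 with TopHat2 2.0.8 and named RPKM as the unit. The deposited values are treated as a normalized signal: in each library low values were multiples of 1 step for genes of any length (62.4% to 72.8% of values up to 40 reads were whole within 0.02 reads), the lowest value stood for no read, and the 75th percentiles were near 15.6 in all libraries. Estimated reads are the value divided by that step, minus 1. Partly fractional reads allowed no count model as the main test, and counting error alone underlies the limit of 3 reads. The test planned for RPKM was kept.

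Values were analysed as log2(signal + 1) for genes with a mean of at least 1, with limma 3.58.1 in R 4.3.3 (variance trend, two-sided, TAC minus MSC), Benjamini-Hochberg over all genes tested, threshold 0.05. The 1 added understates the differences of low genes. The members and gene lists were chosen with earlier results of these data known. Named genes are all members, pathway genes below an unadjusted 0.05, the 2 largest differences per direction and list, and the 5 genes most like Wnt5a and Ror2. Same-numbered samples deviated together (correlations 0.477, 0.465 and 0.517), but MSC 1 with TAC 2 (0.462) and MSC 2 with TAC 1 (0.480) did so as well. The numbers come from the labels. These correlations set replicate 3 apart but do not single out same-numbered pairs, so the replicate block is not shown to be a pairing. Alternatives were other pseudocounts, filters, scalings and variance models, voom, the replicate block, the library set as a term, replicates 1 and 2 alone and each sample left out. Averaging replicates 1 and 2 was added after seeing the data. Of the symbols, 94.4% were found in GENCODE M21. A planned epithelial marker is not reported here and was left out of its list.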

Additional observations from a re-analysis of the deposited data

Results flagged for a closer look

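The TAC minus MSC difference in replicate 3, minus the same difference in replicates 1 and 2, passed an adjusted p below 0.05 of the interaction in limma for 9 members. On the log2 scale it was 3.29 for Daam1, 2.59 for Ptk7, 1.78 for Ror1, 1.32 for Prickle2, 1.21 for Wnt5a and 0.85 for Vangl2. It was -2.09 for Vangl1, -1.11 for Prickle1 and -0.89 for Ryk. The values of Daam1 and Ror1 rest on the absence of reads in MSC replicate 3 and on the 1 added before the logarithm. With 1 sample per group in replicate 3, the error comes from replicates 1 and 2, and 57.2% of all genes passed the same test.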

How the results depend on the processing

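Of the 20 alternatives 6 leave fold changes as they are by construction. Over the other 14, 113 of 140 member fold changes kept their direction and side of the adjusted threshold. With replicates 1 and 2 only, 6 members passed the adjusted and 6 the unadjusted threshold (none over all 6 samples), and among the 60 pathway genes 32 and 37 passed (47.4% and 53.3% of all genes). For members the unadjusted count was 2 with voom (Daam1, Vangl1), 2 with the library set as a term (Prickle2, Vangl2), 1 with the replicate block, which changed no adjusted call of a member, and 0 to 1 with a sample left out (Prickle2, without MSC replicate 3). For pathway genes the adjusted count was 1 with quantile scaling, 1 with the replicate block, 11 with the library set as a term (11.8% of all genes) and 0 to 1 with a sample left out (0 to 1.8%). Their unadjusted count was 7, but 4 without a variance trend, 12 with voom, 17 with the replicate block, 22 with the library set as a term (29.6% of all genes), 2 with replicates 1 and 2 averaged (3.96%), and 3 (without MSC replicate 2, 8.98%) to 11 (without MSC replicate 3, 20%) with a sample left out. Among members and named pathway genes, signs turned with replicates 1 and 2 only for Wnt5a (-0.019), Ror2 (0.047), Prickle1 (0.35), Daam1 (-0.027) and Kif26b (-0.028), with median-ratio scaling for Prickle1 (0.00087), with voom for Ror1 (4.39), and with replicates 1 and 2 averaged for Ror1 (0.018) and Ryk (-0.044). With a sample left out, log2 fold changes ran from -0.17 to 0.70 for Wnt5a, -1.64 to 0.49 for Ror1, -0.52 to 0.51 for Ror2, -0.16 to 0.52 for Ryk, -0.065 to 1.85 for Ptk7, -0.18 to 0.29 for Prickle1, -0.48 to 1.90 for Daam1, -0.23 to 1.39 for Wdpcp, -1.11 to 2.02 for Kif26b and -0.19 to 1.33 for Fzd5, and the log2 ratio difference of Ror1 to Ror2 from -1.12 to 0.33. Vangl1 (-1.22 to -0.50), Vangl2 (0.15 to 0.96) and Prickle2 (-1.57 to -0.37) kept their signs. The cause of each change was not tested. For every member the 95% confidence interval over all 6 samples includes 0 and the difference seen in replicates 1 and 2, which are among those samples. For Vangl1 the difference in replicate 3 (-2.34) lies outside its interval (-2.07 to 0.16).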
